A study of Mus musculus with 10 samples.

Results

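The tight junction genes of the blood-testis barrier were followed here as 9 genes taken by symbol from 2 expression tables: the claudins Cldn11, Cldn3 and Cldn5, occludin (Ocln), tricellulin (Marveld2), the scaffold gene Tjp1, which encodes ZO-1, and the junctional adhesion molecules F11r (JAM-A), Jam2 (JAM-B) and Jam3 (JAM-C). All 9 were found in both tables, among 17816 genes in the day 7 table and 20007 in the adult table. The samples are mouse poly(A) RNA-seq libraries, made to ask what loss of Rnf20, a ubiquitin ligase for histone H2B, does in Sertoli cells. The day 7 table holds 2 control samples, given as Rnf20 Flox/Flox in the study and as WT in the labels, and 2 samples of Amh-Rnf20-/- mice, in which Cre under the Amh promoter removes floxed Rnf20 in Sertoli cells. These cells came from testes 7 days after birth and were adherent cells used after culture and several passages, while one protocol field of their labels speaks of adult tissue. The adult table holds 3 testis samples labelled WT and 3 labelled RNF20 conditional knockout, with no age given. The study does not describe an adult RNA-seq experiment, so the alleles of these mice are known only from the labels.

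Tight junctions seal neighbouring Sertoli cells to each other and divide the seminiferous epithelium into a basal and an adluminal compartment, so that meiotic and haploid germ cells develop away from blood-borne factors. Claudins form the paired strands of the seal, occludin and tricellulin are multi-pass membrane proteins of the strands and of the corners where cells meet, junctional adhesion molecules bind through immunoglobulin domains, and ZO-1 ties these proteins to actin. Cldn11 is the main claudin of the Sertoli cell barrier in mice, and mice without it are sterile. Cldn3 and Cldn5 have been seen at this barrier in a stage-dependent way, and Cldn5 is also the leading claudin of endothelial cells.

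The members lie at separate places in the genome, given here in GRCm38.p6, the build named for the files. Cldn11 lies on the plus strand of chr3:31149920-31164326 and has 3 exons. Cldn3 lies on chr5:134986214-134987476, Cldn5 on chr16:18776847-18778262, Tjp1 on chr7:65296165-65527850, F11r on chr1:171437561-171464593, Jam2 on chr16:84774123-84826380 and Jam3 on chr9:27097384-27155421. Ocln, on chr13:100496504-100552718, and Marveld2, on chr13:100595957-100616971, are the only neighbours, with 43238 bases between them. RefSeq promoter windows were matched for 7 of the 9 members, all but Jam2 and Jam3. The 250 bases before the start of the 4 members below are shown because they belong to the main claudin of the barrier and to 3 members called in adult testis. Capitals mark the CCAAT box (CCAAT, or ATTGG on the other strand) and the GC box (GGGCGG, or CCGCCC on the other strand).
Cldn11 chr3:31149670-31149919: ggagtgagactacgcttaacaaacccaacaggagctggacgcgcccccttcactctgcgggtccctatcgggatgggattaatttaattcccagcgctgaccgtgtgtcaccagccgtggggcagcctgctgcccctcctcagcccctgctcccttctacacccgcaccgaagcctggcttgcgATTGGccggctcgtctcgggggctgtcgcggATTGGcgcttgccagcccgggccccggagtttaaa
F11r chr1:171437311-171437560: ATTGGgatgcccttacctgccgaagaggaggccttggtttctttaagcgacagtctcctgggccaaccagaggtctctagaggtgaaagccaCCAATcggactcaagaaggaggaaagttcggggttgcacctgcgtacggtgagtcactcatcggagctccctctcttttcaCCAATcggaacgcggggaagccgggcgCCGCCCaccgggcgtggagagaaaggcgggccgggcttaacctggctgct
Cldn5 chr16:18776597-18776846: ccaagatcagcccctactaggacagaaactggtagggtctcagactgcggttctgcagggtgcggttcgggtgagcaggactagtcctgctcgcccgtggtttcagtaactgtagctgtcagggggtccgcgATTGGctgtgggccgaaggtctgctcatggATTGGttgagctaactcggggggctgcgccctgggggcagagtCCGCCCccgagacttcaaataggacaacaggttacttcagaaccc
Cldn3 chr5:134985964-134986213: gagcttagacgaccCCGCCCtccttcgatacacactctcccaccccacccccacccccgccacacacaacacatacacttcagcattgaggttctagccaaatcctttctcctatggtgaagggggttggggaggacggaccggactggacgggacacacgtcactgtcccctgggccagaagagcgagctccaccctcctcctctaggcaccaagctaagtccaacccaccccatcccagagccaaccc

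The Cldn11 window held 2 CCAAT boxes, with their first bases 66 and 35 bases before the start, and no GC box. The Cldn5 window also held 2 CCAAT boxes, beside 1 GC box, and the F11r window held 3 CCAAT boxes and 1 GC box. The Cldn3 window held no CCAAT box and 1 GC box, and Tjp1 no CCAAT box and 2 GC boxes. Marveld2 had no CCAAT box in its 2 overlapping windows, and of the 2 windows of Ocln 1 held a CCAAT box. Of all 32851 RefSeq promoter windows of this length, 33.9% held at least 1 CCAAT box, 10.1% at least 2, and 32.7% at least 1 GC box. These matches are letters in a window and were not tested as sites. The reverse primer that the study used for its Cldn11 promoter assay nearest the gene, TGCGGGTGTAGAAGGGA, matched the other strand of the Cldn11 window, 100 to 84 bases before the start.

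Depth was even within each table, at 17477268 to 17705347 estimated counts per sample at day 7 and 15431912 to 16574144 in the adult table. In adult testis 1 library stood apart. There, labelled knockout replicate 1 differed from replicates 2 and 3 by a chi-square per degree of freedom of 88.1 and 118 over all genes, against 21.4 between replicates 2 and 3 and 13.7 to 17.6 between controls. At day 7 the knockout libraries differed from each other by 34.3 on this measure and the controls by 2.65, with knockout replicate 1 at 55.6 and 57.3 from the controls and replicate 2 at 20.7 and 22.5. Rnf20 itself was at 10.25 and 12.58 FPKM (fragments per kilobase of transcript, scaled to sequencing depth) in the day 7 knockout against 16.64 and 16.01 in the control (log2 fold change -0.49, SE 0.12, adjusted p = 0.222). In adult testis Rnf20 was at 9.16, 5.76 and 9.85 FPKM in the samples labelled knockout against 4.89, 3.32 and 4.09 in the controls, in whole testis, where other cells also use the gene. Its direction turned on the scaling, with a log2 fold change of 0.12 (SE 0.27, adjusted p = 0.688) on TMM-scaled counts, -0.075 with median-ratio scaling and 0.97 with total counts. Adult samples are therefore called labelled knockout throughout.

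The labelled cell type was checked by fixed marker lists. At day 7 the summed FPKM of 18 Sertoli cell markers was 1625 to 1806 in the control and 989 and 1366 in the knockout, and all 18 were above 0. Sox9, which directs Sertoli cell identity, was at 41.84 and 39.43 FPKM in the control, 10.19 in knockout replicate 1 and 25.66 in knockout replicate 2. The same cultures also carried 7 peritubular myoid and 6 stromal fibroblast markers. The myoid sum was 2376 to 2515 FPKM in the control and 4115 and 4291 in the knockout. The fibroblast sum was 2152 to 2236 and 3306 to 3920. For 9 spermatogonium markers the sum was 203 to 210 FPKM in the control and 145 and 141 in the knockout. Both knockout samples lay below both controls for 8 of these 9 and for all 5 spermatocyte markers tested (26.1% of all genes tested). In adult testis the sum of 11 spermatid markers was 126484 to 195200 FPKM in the control and 16.2 to 139 in the labelled knockout, and that of 11 spermatocyte markers 5306 to 5550 and 2.67 to 476. The summed FPKM of other somatic lists stood higher in every labelled knockout library, with 10 endothelial markers at 49.8 to 85.3 FPKM against 9.36 to 10.3, and 6 Leydig cell markers at 63400 to 88045 against 4016 to 5616. The Sertoli cell sum was 1156 to 1566 in the control and 3039, 6424 and 7668 in the labelled knockout, but in replicate 1 Clu (1857) and Inha (766) made most of it, and 11 of the 18 markers lay below every control and 7 above. In such bulk samples fewer cells of a type and less RNA per cell cannot be told apart.

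In cultured Sertoli cells at day 7 the members fell into a clear order of level. Cldn11 was the most abundant in the control at 221 ± 10.7 FPKM (SD, n = 2), followed by F11r at 159 ± 7.89, Jam2 at 56.6 ± 2.35, Jam3 at 36.4 ± 2.60, Tjp1 at 21.0 ± 0.83, Ocln at 5.75 ± 0.15, Cldn3 at 4.10 ± 1.29, Marveld2 at 1.45 ± 0.67 and Cldn5 at 0.30 ± 0.14. No 2 neighbours in this order overlapped over the 2 control samples. In the knockout F11r had the highest mean, and only Jam3 with Tjp1 and Marveld2 with Cldn5 were neighbours without overlap. The plot of levels by sample shows both tables on one kind of axis, although they were made separately and levels are not tested between them.

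**Figure D1:**
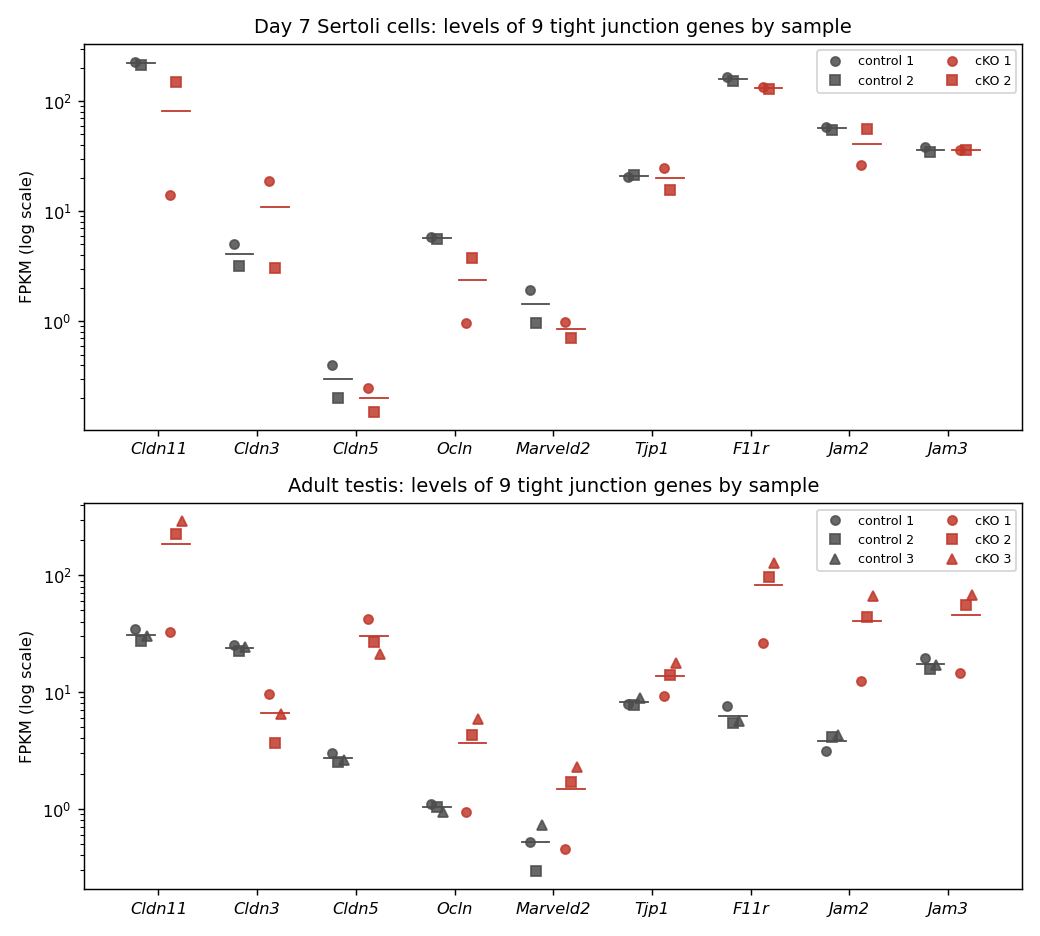
FPKM of the 9 tight junction genes on a log axis in day 7 Sertoli cells (top, 2 control and 2 knockout samples) and adult testis (bottom, 3 control and 3 labelled knockout samples), with 1 point per sample, cKO for knockout (labelled knockout in adult testis) and a bar at each group mean. Cldn11 spans 14.01 to 228.89 FPKM at day 7, and in adult testis labelled knockout replicate 1 lies near the controls for Cldn11 and Ocln.

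No member passed the test at day 7. Of the 8 members with enough signal to be tested, edgeR's quasi-likelihood test with adjustment over all 12880 genes tested called 0, with 1 member, F11r, at an unadjusted p under 0.05. DESeq2 and limma also called 0 of them. Over all genes edgeR called 0% at day 7, while 1997 genes had an unadjusted p under 0.05 and DESeq2 called 387 higher and 192 lower. Both knockout samples lay below both controls for 3 of the 8 members, Cldn11, Ocln and F11r, and above them for 0 (shares over all genes tested 26.1% below and 24.8% above). The median log2 fold change of the 8 members was -0.34, against -0.0039 over all genes tested.

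Cldn11, the main strand protein of the barrier, was at 228.89 and 213.74 FPKM in the control and at 14.01 and 150.35 FPKM in the knockout at day 7. Both knockout samples were below the control, but replicate 1 was far below and replicate 2 only moderately so. Its log2 fold change was -1.40 (SE 1.04, adjusted p = 0.571). Occludin showed the same order of samples, with Ocln at 5.85 and 5.64 FPKM in the control, 0.96 in knockout replicate 1 and 3.76 in knockout replicate 2. Its log2 fold change was -1.25 (SE 0.61, adjusted p = 0.407). Marveld2, which seals the corners between 3 cells, was at 1.92 and 0.97 FPKM in the control and 0.98 and 0.71 in the knockout, so the groups overlapped (log2 fold change -0.70, SE 0.47, adjusted p = 0.532).

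Cldn3 went the other way in only 1 library. It was at 5.01 and 3.18 FPKM in the control, 18.97 in knockout replicate 1 and 3.05 in knockout replicate 2. The groups overlapped, and the log2 fold change of 1.47 (SE 0.90, adjusted p = 0.498) rested on replicate 1, without which it was -0.39. Cldn5 was at 0.40 and 0.20 FPKM in the control and 0.25 and 0.15 in the knockout, from 8, 4, 5 and 3 counts, and was not tested.

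The junctional adhesion molecules and ZO-1 differed less. F11r was at 164.79 and 153.63 FPKM in the control and 134.35 and 127.57 in the knockout. Its knockout samples were close to each other and below both controls, with a log2 fold change of -0.24 (SE 0.08, unadjusted p = 0.0400, adjusted p = 0.303). Jam2 was at 58.23 and 54.90 FPKM in the control, and only knockout replicate 1, at 26.10, was low, with replicate 2 at 56.02 (log2 fold change -0.43, SE 0.36, adjusted p = 0.624). Jam3 was at 38.21 and 34.53 FPKM in the control and 35.70 and 36.22 in the knockout, inside the control range (log2 fold change 0.02, SE 0.09, adjusted p = 0.930). Tjp1 was at 20.39 and 21.56 FPKM in the control and at 24.59 and 15.68 in the knockout, so the knockout samples lay on either side of the control (log2 fold change -0.02, SE 0.23, adjusted p = 0.983).

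The day 7 calls depended on which knockout library was present. Without knockout replicate 1 edgeR called 4 members, Cldn11, Ocln, Tjp1 and F11r, all lower. Without knockout replicate 2 it called 6, with Cldn11, Ocln, F11r and Jam2 lower and Cldn3 and Tjp1 higher. Each of these fits takes the spread of the lone knockout sample from the controls, and each called many other genes too, 1290 higher and 1441 lower without replicate 1 (20.8% of genes tested) and 2707 higher and 2342 lower without replicate 2 (37.7%). Without replicate 1 the log2 fold change of Cldn11 was -0.52 (adjusted p = 0.00159), and without replicate 2 it was -3.94 (adjusted p = 2.53e-05). For Ocln these values were -0.58 (adjusted p = 0.0148) and -2.54 (adjusted p = 0.000200). Knockout replicate 1 was also the library with the lower Sox9 and with Dhh, a Sertoli cell ligand, at 4.81 FPKM against 21.77 to 24.00 in the control and 16.07 in knockout replicate 2. Of the 18 Sertoli cell markers 15 were lower in replicate 1 than in replicate 2 and 3 were higher, Kitl (28.44 against 18.70 FPKM), Amh (3.87 against 3.33) and Rhox5 (0.64 against 0.54). The part of these marker differences in the member differences was not tested.

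**Figure D2:**
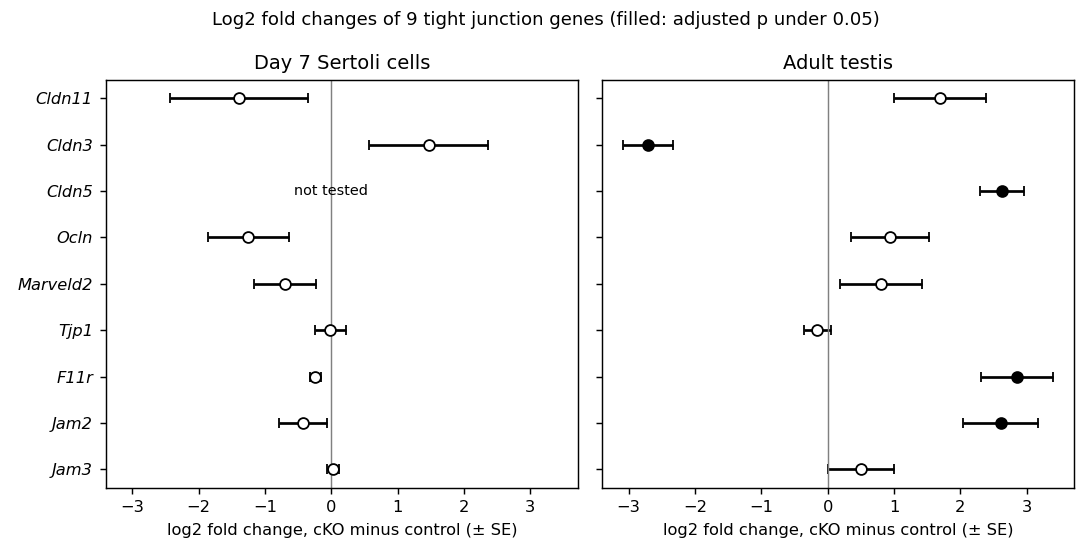
Log2 fold change of each member, knockout (labelled knockout in adult testis) minus control, with its standard error as a bar, from edgeR's quasi-likelihood fit in day 7 Sertoli cells (left) and adult testis (right), where filled points have an adjusted p under 0.05. No point is filled at day 7, and Cldn5, F11r and Jam2 above 0 and Cldn3 below 0 are filled in adult testis.

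In adult testis the members stood in another order than at day 7. In the control Cldn11 led at 30.8 ± 3.91 FPKM (SD, n = 3), then Cldn3 at 23.9 ± 1.51, Jam3 at 17.5 ± 2.02, Tjp1 at 8.16 ± 0.62, F11r at 6.23 ± 1.16, Jam2 at 3.83 ± 0.64, Cldn5 at 2.70 ± 0.24, Ocln at 1.03 ± 0.08 and Marveld2 at 0.51 ± 0.22. No neighbours in this order overlapped over the 3 control samples. In the labelled knockout the order was Cldn11, F11r, Jam3, Jam2, Cldn5, Tjp1, Cldn3, Ocln and Marveld2, with overlap between all neighbours except Cldn5 and Tjp1.

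In adult testis 4 of the 9 members passed the test. Cldn5, F11r and Jam2 rose in the labelled knockout and Cldn3 fell, while Cldn11, Jam3, Ocln, Marveld2 and Tjp1 did not pass. All 9 were tested, and Marveld2 passed the filter with 4 samples at or above 0.5 FPKM, 2 in each group. Calls were common in this comparison: of 15919 genes tested, 40.9% were called higher and 40.6% lower, so 3 members higher and 1 lower of 9 is not more than the background. The labelled knockout samples all lay above all controls for the same 3 members (42.4% of genes tested) and all below for Cldn3 (43.1%). The median log2 fold change was 0.94 over the members and 0.01 over all genes tested. These changes are relative to TMM scaling, under which the factors were 0.711 to 0.761 in the control and 1.27 to 1.42 in the labelled knockout. Scaling by total counts moved the median of all genes to 0.87 and the calls from 6503 higher and 6466 lower to 8613 higher and 4777 lower, and then 8 members were called higher and 1 lower.

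Cldn5, the claudin shared with endothelium, was at 2.97, 2.53 and 2.59 FPKM in the control and 42.03, 26.71 and 21.00 in the labelled knockout. Every labelled knockout sample was far above the control, with replicate 1 the highest (log2 fold change 2.63, SE 0.33, adjusted p = 0.000497). The summed endothelial markers had the same order of libraries, at 85.3, 53.4 and 49.8 FPKM in labelled knockout replicates 1, 2 and 3, and 7 of these 10 markers were called higher and 1 lower. The sums of the stromal fibroblast list (3390, 1327 and 1303 FPKM) and the macrophage list (1561, 1314 and 1147 FPKM) had that order as well. Pecam1, an endothelial adhesion molecule, was at 9.0, 4.66 and 6.49 FPKM in these libraries, which is not that order, and at 0.14 to 0.67 in the control, and no endothelial marker was at 0 in either group. Their part in the Cldn5 result was not tested.

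Cldn3 was the only member that fell in adult testis. It was at 25.23, 22.28 and 24.28 FPKM in the control and 9.64, 3.62 and 6.48 in the labelled knockout (log2 fold change -2.71, SE 0.37, adjusted p = 0.000746). The groups did not overlap, and replicate 1 was the highest of the labelled knockout. That library had the lowest spermatocyte sum, 2.67 FPKM, against 331 and 476 in the other two, so Cldn3 and the spermatocyte list did not share an order among these 3 libraries. The part of the germ cell marker differences in the fall of Cldn3 was not tested.

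F11r and Jam2, both adhesion molecules of the immunoglobulin family, rose in every labelled knockout sample. F11r was at 7.56, 5.46 and 5.66 FPKM in the control and 26.37, 95.77 and 126.57 in the labelled knockout (log2 fold change 2.85, SE 0.54, adjusted p = 0.00310). Jam2 was at 3.10, 4.10 and 4.29 FPKM in the control and 12.41, 43.57 and 66.17 in the labelled knockout (log2 fold change 2.61, SE 0.57, adjusted p = 0.00548). For both genes replicate 1 lay between the controls and the other labelled knockout samples. Jam3, by contrast, was at 19.68, 15.69 and 17.13 FPKM in the control, 14.47 in replicate 1 of the labelled knockout and 55.41 and 67.86 in replicates 2 and 3, so its groups overlapped (log2 fold change 0.51, SE 0.50, adjusted p = 0.377).

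Cldn11 also split the labelled knockout. It was at 34.88, 27.08 and 30.40 FPKM in the control, 32.84 in labelled knockout replicate 1, 226.62 in replicate 2 and 293.45 in replicate 3. Replicate 1 was inside the control range, and the log2 fold change was 1.69 (SE 0.70, adjusted p = 0.0620). Across settings run on all samples this adjusted p ranged from 0.0173 to 0.222, and DESeq2, total counts and limma on log2(FPKM + 1) each called Cldn11 higher. Ocln was at 1.10, 1.04 and 0.94 FPKM in the control and 0.93, 4.25 and 5.87 in the labelled knockout (log2 fold change 0.94, SE 0.59, adjusted p = 0.182). Marveld2 was at 0.52, 0.29 and 0.73 FPKM in the control and 0.45, 1.70 and 2.27 in the labelled knockout (log2 fold change 0.80, SE 0.61, adjusted p = 0.262). In FPKM, labelled knockout replicate 1 was thus inside the control range for Cldn11 and Marveld2 and just below it for Ocln and Jam3, while replicates 2 and 3 were above it for all 4. As TMM-scaled CPM, replicate 1 was below every control for the 4 genes, with Cldn11 at 41.6 against 61.5 to 74.1 and Jam3 at 19.4 against 38.1 to 44.5.

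Tjp1 was the member whose direction turned on the scaling. In FPKM it was at 7.85, 7.76 and 8.87 in the control and 9.26, 13.97 and 17.57 in the labelled knockout, with every labelled knockout sample higher. On TMM-scaled counts the groups overlapped and its log2 fold change was -0.16 (SE 0.21, adjusted p = 0.496). With total counts it was 0.71 (adjusted p = 0.0313), below the median of all genes under that scaling, 0.87.

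Leaving out labelled knockout replicate 1 raised the count of members called higher from 3 to 7, adding Cldn11 (log2 fold change 2.31, adjusted p = 3.75e-07), Ocln (1.499), Marveld2 (1.35) and Jam3 (1.04). That fit called 45% of all genes tested higher. Cldn3 remained lower at -3.02, and Tjp1 stood at 0.15 (adjusted p = 0.244). Replicate 1 also had less of some Sertoli cell markers than the other two, with Sox9 at 1.20 against 9.86 and 12.65 FPKM, Dhh at 2.21 against 24.29 and 30.65, and Fshr, the receptor for follicle-stimulating hormone, at 0.30 against 4.76 and 8.70. The controls were at 1.37 to 2.34 for Sox9. Other markers did not follow this, since Inha, an inhibin subunit, was highest in replicate 1, at 765.73 FPKM against 244.87 and 368.15, and Gata4 was at 53.51 against 57.70 and 54.85. Of the 18 Sertoli cell markers 7 were called higher and 2 lower in this comparison. The part of these marker levels in the split was not tested. The plot of each sample against the control mean places the members beside Sox9 and Pecam1.

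**Figure D3:**
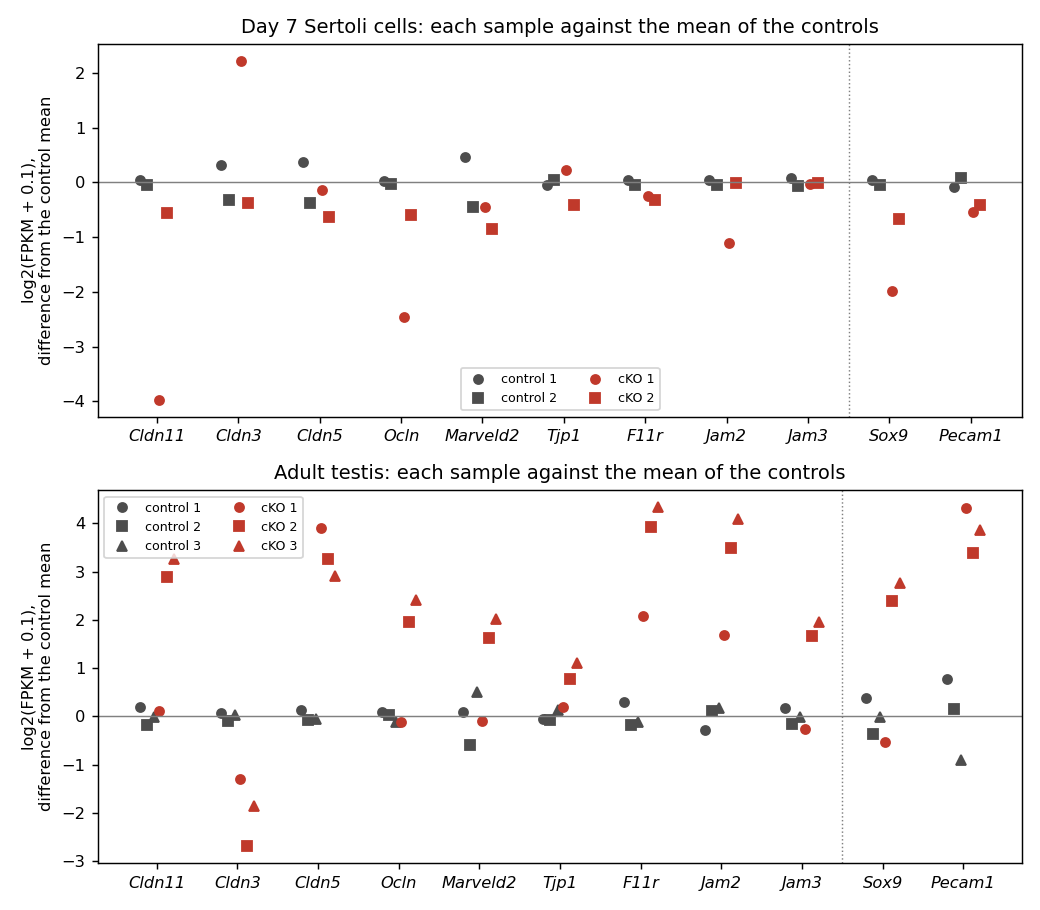
Difference of log2(FPKM + 0.1) from the mean of the controls for the 9 members and, right of the dotted line, Sox9 (Sertoli cell) and Pecam1 (endothelial cell), 1 point per sample, in day 7 Sertoli cells (top) and adult testis (bottom). Knockout replicate 1 has the lowest Cldn11, Ocln and Sox9 at day 7, and in adult testis labelled knockout replicate 1 is near 0 for Cldn11 and Ocln, below every control for Sox9, and high for Pecam1.

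The make-up of the 3 member claudins was taken within each sample, which does not depend on scaling between samples. At day 7 Cldn11 made 97.7% and 98.4% of the summed FPKM of the 3 claudins in the control, 97.9% in knockout replicate 2 and 42.2% in knockout replicate 1, where Cldn3 made 57.1%. In adult control testis Cldn11 made 52.2% to 55.3%, Cldn3 up to 42.9% and Cldn5 4.52% to 4.88%. Labelled knockout replicates 2 and 3 were mostly Cldn11, at 88.2% and 91.4%, with Cldn3 at 1.41% and 2.02%. Labelled knockout replicate 1 differed from both patterns, with Cldn5 at 49.7%, Cldn11 at 38.9% and Cldn3 at 11.4%. These shares leave out other claudins, some of which, named here after their values were seen, were more abundant than Cldn3 or Cldn5. Of the summed FPKM of all 20 listed claudins found at day 7, knockout replicate 1 had Cldn4 at 38.7%, Cldn12 at 17.98%, Cldn3 at 15.8% and Cldn11 at 11.7%. Cldn11 made 72.8% in knockout replicate 2 and 67.2% and 68.8% in the control. Of the 21 found in adult testis, labelled knockout replicate 1 had Cldn10 at 29.2%, Cldn5 at 27.3% and Cldn11 at 21.3%.

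**Figure D4:**
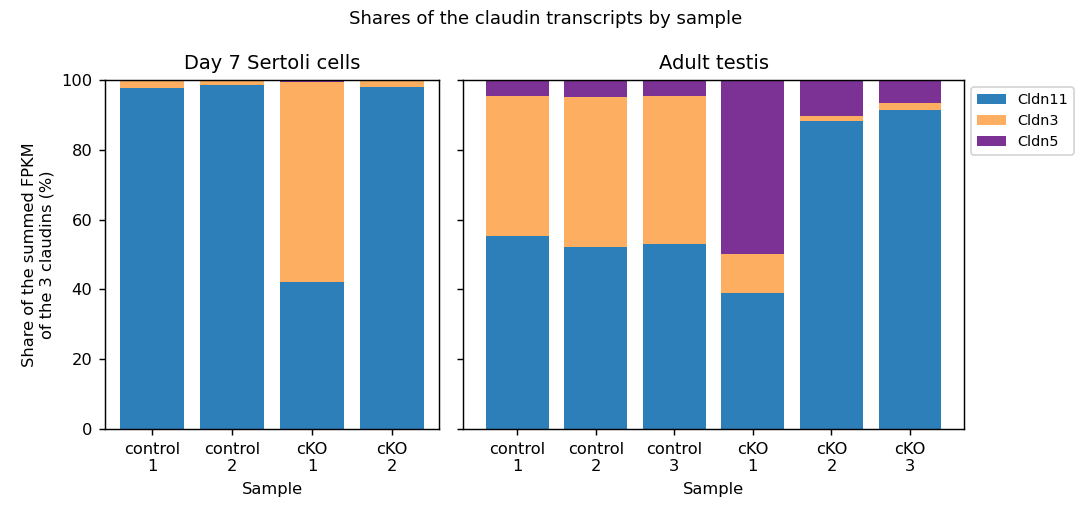
Share of Cldn11, Cldn3 and Cldn5 in the summed FPKM of these 3 claudins, as a stacked bar for each sample of day 7 Sertoli cells (left) and adult testis (right), cKO for knockout (labelled knockout in adult testis). Cldn3 takes 57.1% in day 7 knockout replicate 1, and Cldn5 takes 49.7% in adult labelled knockout replicate 1.

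Ratios between paired members were compared over samples in 10 exact two-sided permutation tests, 5 pairs in each table. At day 7 all 5 pairs overlapped between groups, with exact p-values of 0.667 or 1. In adult testis the log2 ratio of Cldn3 to Cldn11 was -0.36 ± 0.10 (SD, n = 3) in the control and -4.39 ± 2.29 in the labelled knockout, with an exact p = 0.1. Labelled knockout replicate 1 stood apart, at -1.76 against -5.93 and -5.48 in replicates 2 and 3. Over the same 3 samples a group, F11r relative to Tjp1 went from -0.40 ± 0.31 to 2.37 ± 0.75, and Jam2 relative to Jam3 from -2.17 ± 0.40 to -0.20 ± 0.16, each with an exact p = 0.1. For these 3 pairs the groups did not overlap, and 0.1 is the smallest p that 3 samples against 3 allow, or 0.33 after adjustment over the 10 tests. Cldn5 to Cldn11 and Ocln to Marveld2 overlapped, with exact p-values of 0.5 and 0.7.

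The members were also set against the Sertoli cell markers of the same sample, as log2(FPKM + 0.1) minus the mean of the 18 markers. In adult testis F11r went from -1.04 ± 0.06 (SD, n = 3) to 1.05 ± 0.04, and Jam2 from -1.72 ± 0.44 to 0.00 ± 0.08. On this scale labelled knockout replicate 1 lay with replicates 2 and 3 for both genes. In replicate 1, 11 of the 18 markers lay below every control and 7 above, so its place depends on the choice of markers. On the same scale Cldn11 was at 1.26 ± 0.06 and 1.97 ± 0.49, Cldn5 at -2.20 ± 0.07 and -0.20 ± 1.74, Cldn3 at 0.90 ± 0.13 and -2.42 ± 1.80, and Jam3 at 0.45 ± 0.05 and 0.20 ± 0.08. Labelled knockout replicate 1 stood apart from replicates 2 and 3 for Cldn3 (-0.35 against -3.63 and -3.26) and Cldn5 (1.76 against -0.78 and -1.58). F11r, Jam2, Cldn11, Cldn5, Cldn3 and Jam3, 6 members, did not overlap between groups. Each had an exact permutation p = 0.1, the smallest possible for 3 against 3, and 0.15 after adjustment over the 9 members. With a pseudocount of 1, Cldn11 overlapped (p = 0.2 in the same exact test) and the other 5 did not. Of the 9 members 4 lay above the controls and 2 below, and of all genes tested 23.6% lay above and 36.6% below on this measure. Ocln, at -3.51 ± 0.15 and -3.47 ± 0.11, Marveld2, at -4.46 ± 0.53 and -4.64 ± 0.12, and Tjp1, at -0.64 ± 0.24 and -1.32 ± 0.79, overlapped. The 18 markers did not move as one, since Rhox5 was at 0.34 to 1.41 FPKM in the labelled knockout against 16.64 to 20.75 in the control.

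At day 7 the same measure put Cldn11 at 3.65 ± 0.09 (SD, n = 2) in the control and 1.92 ± 1.76 in the knockout, and Ocln at -1.59 ± 0.13 and -2.59 ± 0.66. Jam3 was at 1.05 ± 0.06 and 1.57 ± 0.64. These 3 members did not overlap between groups, with an exact p = 0.33, the smallest that 2 against 2 can give. The differences rested largely on knockout replicate 1, without which that of Cldn11 went from -1.74 to -0.49, that of Ocln from -1.003 to -0.54 and that of Jam3 from 0.51 to 0.059. Without knockout replicate 2 they were -2.98, -1.47 and 0.97. On this measure 2.86% of all genes tested lay below both controls in both knockout samples, as Cldn11 and Ocln did, and 33% above, as Jam3 did. F11r, below the control in FPKM, overlapped on this scale at 3.18 ± 0.09 and 3.43 ± 0.71. The other 5 members overlapped as well.

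**Figure D5:**
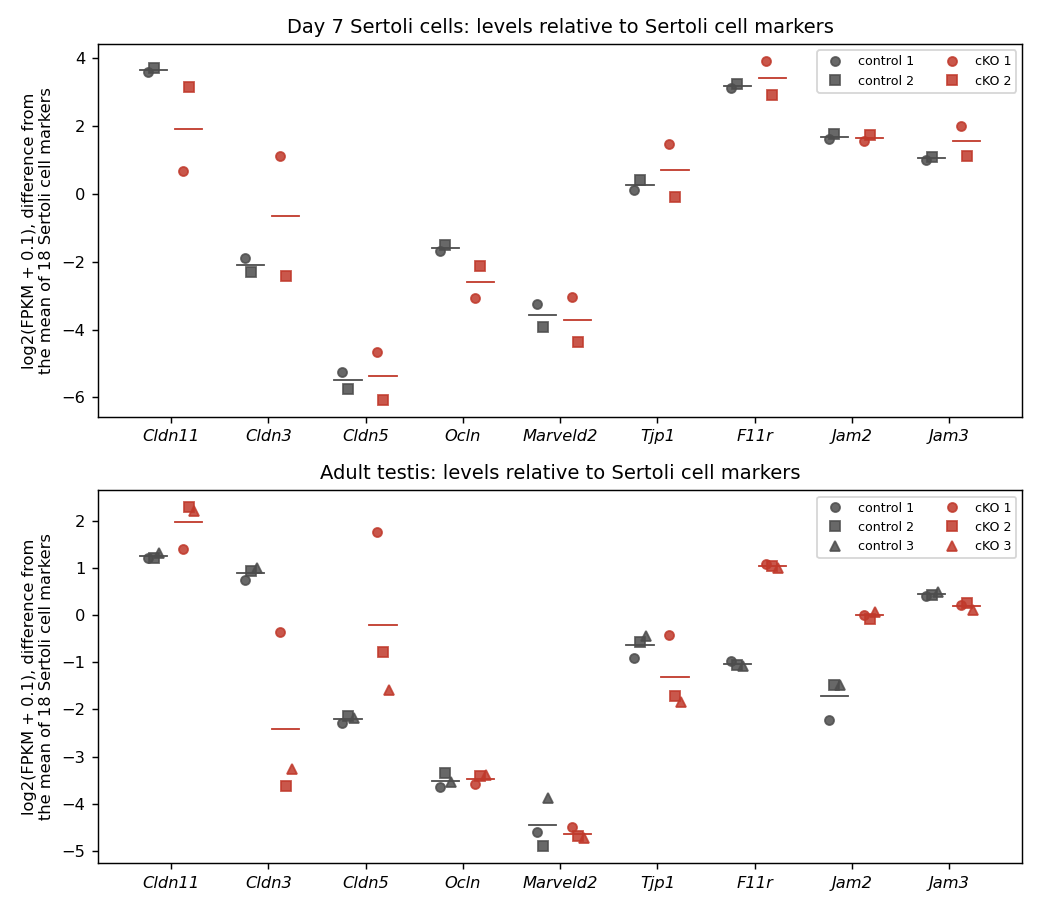
Level of each member relative to 18 Sertoli cell markers of the same sample, as a difference of log2(FPKM + 0.1), 1 point per sample and a bar at each group mean, in day 7 Sertoli cells (top) and adult testis (bottom). In adult testis the 3 labelled knockout samples of F11r lie together at 1.05 ± 0.04, above the controls at -1.04 ± 0.06.

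The genes whose pattern was nearest that of Cldn11 were found by the root mean square difference over the 10 samples, after centring log2(FPKM + 0.1) on each table's mean, among 12377 other genes. They were Gatm (0.21), which encodes the first enzyme of creatine synthesis, Slc52a3 (0.29), a riboflavin transporter, Tox2 (0.36), Dtx1 (0.40) and Tmem200b (0.44). Gatm was at 262.12 and 246.23 FPKM in the day 7 control, 10.67 and 124.29 in the day 7 knockout, 27.16 to 35.24 in the adult control and 25.28, 218.64 and 319.19 in the labelled knockout. The adjusted p-values of these 5 in edgeR were 0.470 to 0.648 at day 7 and 0.0631 to 0.159 in adult testis. Among the members Ocln was nearest to Cldn11, at rank 21 (0.53), then Jam2 at rank 135 (0.89), Marveld2 at 484 (1.13), Jam3 at 496 (1.13), F11r at 627 (1.16), Tjp1 at 4648 (1.39) and Cldn3 at 12005 (2.52). Cldn5 did not pass the filter at day 7 and has no rank. This is a description over 10 samples, and it carries no test.

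Beyond the members, 52 other tight junction genes were listed, covering other claudins, MARVEL proteins, scaffolds, polarity complexes and immunoglobulin-like membrane proteins. At day 7, 35 of them were tested and edgeR called 0, with 12 at an unadjusted p under 0.05 (15.5% of all genes), limma calling 0 and DESeq2 calling 7 (4.5% of all genes). The median log2 fold change was -0.17, and 16 of the 35 had both knockout samples below both controls and 8 above, against 26.1% and 24.8% of all genes. The smallest p-values belonged to Cldn6, an early epithelial claudin, and to Pard6b and Magi3, a polarity and a scaffold gene. Cldn6 was at 27.59 and 20.96 FPKM in the control and 6.74 and 6.87 in the knockout, with both knockout libraries alike (log2 fold change -1.80, SE 0.18, adjusted p = 0.119). Pard6b was at 33.86 and 36.05 FPKM and at 23.25 and 23.80 (-0.53, SE 0.08, adjusted p = 0.137), and Magi3 at 16.29 and 16.60 and at 9.49 and 10.93 (-0.65, SE 0.10, adjusted p = 0.141). Leaving out knockout replicate 1 or 2 at day 7 gave 15 and 22 calls among these genes, in fits that called 20.8% and 37.7% of all genes tested.

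In adult testis 37 of the 52 were tested, 20 rose and 10 fell, with a median log2 fold change of 1.15, against 40.9% and 40.6% of all genes. Esam, one of those that rose, is also on the endothelial list. With total counts the split was 25 higher and 7 lower. Of the 20, 9 had fewer than 3 controls at 0.5 FPKM and so passed the 0.5 FPKM filter because of their labelled knockout values, and 2 of the 10 passed it because of their control values, so these counts and the median are a description. The largest rises were those of Cldn10, Cldn1, Marveld1 and Ildr2, of which Cldn10, Cldn1 and Ildr2 are among those 9. Cldn10, a claudin of ion-permeable junctions, was at 0.09, 0 and 1.95 FPKM in the control and 44.92, 50.57 and 28.80 in the labelled knockout. Marveld1 was at 1.35, 1.23 and 0.89 FPKM and at 27.43, 27.47 and 25.88 (log2 fold change 3.68, SE 0.20, adjusted p = 3.40e-05), so that the 3 labelled knockout libraries were close together. Ildr2, an angulin-type protein of cell corners, was at 0.10, 0.05 and 0.11 FPKM and at 2.10, 2.12 and 1.58. Cldn1 had 4 counts over the control and 97 over the labelled knockout, a TMM-scaled ratio of 13.9 and a ratio of 25.1 with total counts. These ratios pool the libraries of each group. They are a description, since Cldn1 passed the filter because of its labelled knockout values.

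The largest falls were those of Cldn13, Ybx3, Marveld3 and Prkcz, of which Cldn13 and Marveld3 reached the filter only through the controls. Cldn13, a rodent claudin, had 77, 84 and 82 counts in the control and 0 in each labelled knockout library, at least 47.3-fold lower against a floor of 3 counts per library with TMM scaling and at least 26.1-fold with total counts. Ybx3, whose protein (ZONAB) binds ZO-1 and which is highly used in germ cells as MSY4, was at 1262, 1253 and 1285 FPKM in the control and 47.73, 83.88 and 93.18 in the labelled knockout (log2 fold change -5.01, SE 0.36, adjusted p = 6.36e-05). Prkcz, an atypical protein kinase C of the polarity complex, was at 5.21 to 5.40 FPKM and 0.84 to 1.23 (-3.19, SE 0.20, adjusted p = 4.73e-05). Marveld3 was at 0.78 to 0.85 FPKM and 0.06 to 0.18, from 2 to 5 counts in each labelled knockout library. In the same comparison 11 of 11 spermatid markers and 7 of 11 spermatocyte markers were called lower, and their part in these falls was not tested.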

How the data were processed

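Poly(A) RNA-seq was measured in 4 libraries of day 7 Sertoli cells and 6 of adult testis, grouped by their labels. The authors used HISAT (genome GRCm38.p6) and Bowtie2 (reference genes) for mapping and RSEM for quantification. Tool versions, strand handling and the processing of the adult samples are not given in the sources used here. The deposited tables hold estimated counts (expected counts, not normalized), FPKM and TPM values, of which TPM was not used. The adult file also had 20 empty columns, which were left out. The members and lists were chosen with earlier results of these data known. Each table was analysed alone, because the 2 were made separately.

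Rounded counts were tested with edgeR 4.0.16 (quasi-likelihood, TMM, R 4.3.3) and Benjamini-Hochberg adjustment. Genes entered the test when at least 2 samples at day 7, or 3 in adult testis, reached 0.5 FPKM. A call is an adjusted p under 0.05. Each standard error (SE) was derived from the fold change and its F statistic. The fits were tested on simulated data with a spread taken from the controls alone. That test does not cover the larger spread between the knockout libraries. Ratios and levels relative to Sertoli cell markers used log2(FPKM + 0.1) and exact two-sided permutation tests, with a smallest p of 0.33 for 2 against 2 and 0.1 for 3 against 3. Alternatives were median-ratio scaling, total counts, DESeq2 1.42.0, limma 3.58.1 on log2(FPKM + 0.1) and log2(FPKM + 1), other filters, stricter thresholds, a replicate block, and leaving out each sample. The study's methods name 3 individuals in each day 7 group, while 2 samples a group were analysed here, and the labels tie no sample to an animal or culture, so p-values measure the spread between these samples, which may be technical. Depth was 15431912 to 17705347 counts per sample. The genes named are the 9 members, Rnf20 and the 5 genes most like Cldn11. For the 52 other tight junction genes they are the 4 that rose most and the 4 that fell most among those called. At day 7, with 0 called, they are those with the 3 smallest p-values. Cldn4 and Cldn12 are named for their shares, after their values were seen. Cldn7 and Pard3b are named for how they passed the adult filter, also after their values were seen. Marker genes come from the fixed lists, and Esam is on the endothelial list.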

Additional observations from a re-analysis of the deposited data

Results flagged for a closer look

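Of the members and the other tight junction genes named for their values, 3 had all day 7 knockout samples on 1 side of the controls and all adult samples labelled knockout on the other side; the difference between the tables was not tested. F11r had a log2 fold change of -0.24 at day 7 and 2.85 in adult testis. Ildr2, which is among the other tight junction genes, had -1.06 and 3.67. It passed the adult filter because of its labelled knockout values, with controls at 0.05 to 0.11 FPKM, so its adult value is a description. Ybx3 had 0.14 and -5.01. Among all listed genes tested in both tables, 1 of 8 members and 11 of 32 other tight junction genes had this pattern. Of the 12378 genes tested in both, 18.3% had it. Of the 11, Cldn7, Pard3b and Ildr2 passed the adult filter because of their labelled knockout values, so this count is a description. At day 7 none of F11r, Ildr2 and Ybx3 passed the test (edgeR adjusted p 0.303, 0.262 and 0.499). Of these, only F11r and Ildr2 had an unadjusted p under 0.05 there. No group held the 4 samples needed to flag, for a single gene, 1 sample far from its group. The adult library that stood apart was described over all genes.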

How the results depend on the processing

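The count of members called higher in adult testis was 3, and it was 8 with total counts, 5 with limma on log2(FPKM + 1), 1 with an adjusted p under 0.001 and over 2-fold, and 3 to 7 when 1 sample was left out. Of the other tight junction genes 20 were called higher there, and 6 at the stricter thresholds, with 15 to 23 when 1 sample was left out. At day 7 the count of members called was 0, and 0 to 6 when 1 sample was left out, and for the other tight junction genes 0, with 7 by DESeq2 and 0 to 22. With 1 sample left out of 2, the lone sample is assumed to vary like the other group. The cause of these differences was not tested. Deviations of same-numbered samples from their group means had r = 0.036 at day 7, and 0.011, 0.012 and 0.025 in adult testis. With 2 samples a group at day 7, other pairings can only repeat this value or reverse its sign. The labels give no pairing, so whether same-numbered samples share an origin cannot be told from these values. With a replicate block 0 members were called at day 7, and 3 higher and 1 lower in adult testis.

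Log2 fold changes that turned direction, cause not tested, were Tjp1 in adult testis (0.71 with total counts, 0.68 and 0.63 with limma, and -0.23 to 0.15 leaving out samples), Jam3 at day 7 (-0.016 with total counts, -0.015 and -0.014 with limma, -0.058 to 0.10), Rnf20 in adult testis (0.12 in the test used, -0.075 with median-ratio scaling and with DESeq2, and higher with an adjusted p under 0.05 at 0.97 with total counts and 0.97 and 0.84 with limma), and, when samples were left out at day 7, Cldn3 (-0.39 to 2.25), Marveld2 (-1.18 to 0.019), Tjp1 (-0.38 to 0.27) and Jam2 (-1.08 to 0.019).

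Relative to Sertoli cell markers, leaving out samples turned Cldn3 (-0.31 to 3.21), Cldn5 (-0.57 to 0.85), Marveld2 (-0.80 to 0.55), Tjp1 (-0.35 to 1.22), F11r (-0.26 to 0.75) and Jam2 (-0.12 to 0.050) at day 7, and Ocln (-0.016 to 0.13) and Marveld2 (-0.40 to 0.11) in adult testis. A pseudocount of 1 gave 0.13 for Marveld2 at day 7 and -0.26 for Ocln in adult testis. With Sox9, Dhh and Fshr as the only markers, a choice made after seeing the data, Marveld2 stood at 0.59 and Jam2 at 0.68 at day 7. Ocln stood at -0.033 in adult testis. Without a turn at day 7, Cldn11 then stood at -1.02 (-1.74 on all 18 markers) and Ocln at -0.29 (-1.003). Jam3 stood at 1.23 (0.51), F11r at 0.96 (0.25), Tjp1 at 1.15 (0.43), Cldn3 at 2.16 (1.45) and Cldn5 at 0.85 (0.14). Among ratios, Cldn5 to Cldn11 (-0.075 to 3.83), Ocln to Marveld2 (-2.02 to 0.26) and F11r to Tjp1 (-0.47 to 0.098) turned at day 7, and Ocln to Marveld2 (-0.080 to 0.53) in adult testis. In adult testis Cldn3, Cldn5, F11r and Jam2 kept the direction of their log2 fold change and an adjusted p under 0.05 under every setting run.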
